A study of Homo sapiens with 7 samples.

Results

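RNA polymerases I, II and III are built from subunits whose genes carry the symbols POLR1, POLR2 and POLR3, and the binding of the transcription factor Myc at these genes was read from the authors' peak list. Members were the 34 protein-coding genes of 20037 on the nuclear chromosomes whose symbol starts with POLR. There were 8 POLR1, 15 POLR2 and 10 POLR3 genes, and POLRMT, which encodes the RNA polymerase of mitochondria. Peaks were assigned when their summit, the position of the highest signal, lay in the gene or within 1 kb of it. The list was made by CUT&RUN, in which an antibody guides a nuclease to its target and the DNA cut out there is sequenced. The cells were HT29, a long-established human line that derives from an adenocarcinoma of the colon. By their titles, 3 libraries were made for Myc, 3 for IgG and 1 was an input. All 7 came from serum-free cultures that had received the monounsaturated fatty acid oleic acid for 6 h. Because all groups had the fatty acid, its effect could not be tested. The labels of the IgG libraries name the Myc antibody, and the titles were followed for the groups. No expression value was used here, so the line was not checked by its marker genes.

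RNA polymerase I makes the precursor of the large ribosomal RNAs in the nucleolus. RNA polymerase II makes messenger RNAs, and RNA polymerase III makes tRNAs, 5S ribosomal RNA and other short RNAs. All of them share a core of related large subunits, and some small subunits are built into more than 1 of the enzymes. Myc binds DNA with its partner MAX, best at the E-box CACGTG, and is known as a regulator of ribosome production that acts on genes read by each of these polymerases. A peak at a subunit gene shows Myc there. It does not measure the activity of the enzyme.

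The peak list gives 1 value per peak for the whole set of Myc libraries. The fold enrichment is the Myc signal at the summit, in fragments (the pileup), over the control level, with 1 added to both. The pileup and the control level were recovered from the listed fold and −log10 p, so the plain ratio of the values printed here is higher than the fold. Over all 47016 nuclear peaks the median fold was 4.11, with a median of 29 fragments against an expected 5.92 in the control. The lowest control level was 5.09, and the same value recurred at many peaks, among them those of POLR3A, POLR2C and POLR2F. Folds at such peaks may rest on a common minimum and not on a level measured at the place. The range in brackets after a fold is its 95% interval, taken from the exact Poisson limits of the pileup, and covers counting error only. The spread between the 3 Myc libraries is not in the list, so no difference between genes was tested, and overlapping intervals do not show that folds were alike.

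Of 34 POLR genes, 33 had a Myc peak (97.1%, Wilson 95% interval 85.1 to 99.5), against 68.8% of all protein-coding genes under the same rule. Some peaks also lie in or within 1 kb of another coding gene. Without such shared peaks, 18 of 34 POLR genes had a peak (52.9%, 36.7 to 68.5), against 55.5% of all protein-coding genes. This recount takes any gene with only shared peaks as lacking one. The strongest peak of the gene was shared at 51.5% of POLR genes with a peak, against 27.7% of all coding genes with one. The part of this in the higher share of 97.1% was not tested. With all peaks counted, POLR1 genes had one in 8 of 8 cases, POLR2 genes in 14 of 15 and POLR3 genes in 10 of 10. POLR2E, which encodes a small subunit used by all 3 enzymes, was the exception. The strongest peak of each gene had a median fold of 9.69 over the 33 genes, against 7.83 over the 13793 protein-coding genes with a peak. POLR1 genes stood highest, with a median of 18.0, followed by POLR3 genes with 10.3 and POLR2 genes with 9.22. On the log2 scale the median of POLR1 was 0.96 above that of POLR2 and 0.80 above that of POLR3, and POLR3 was 0.16 above POLR2. A fold of at least 10 was reached by 6 of 8 POLR1, 5 of 15 POLR2 and 5 of 10 POLR3 genes, against 22.1% of all protein-coding genes. All 4 genes with a fold of at least 20 were POLR1 genes, against 2.02% of all protein-coding genes.

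**Figure D1:**
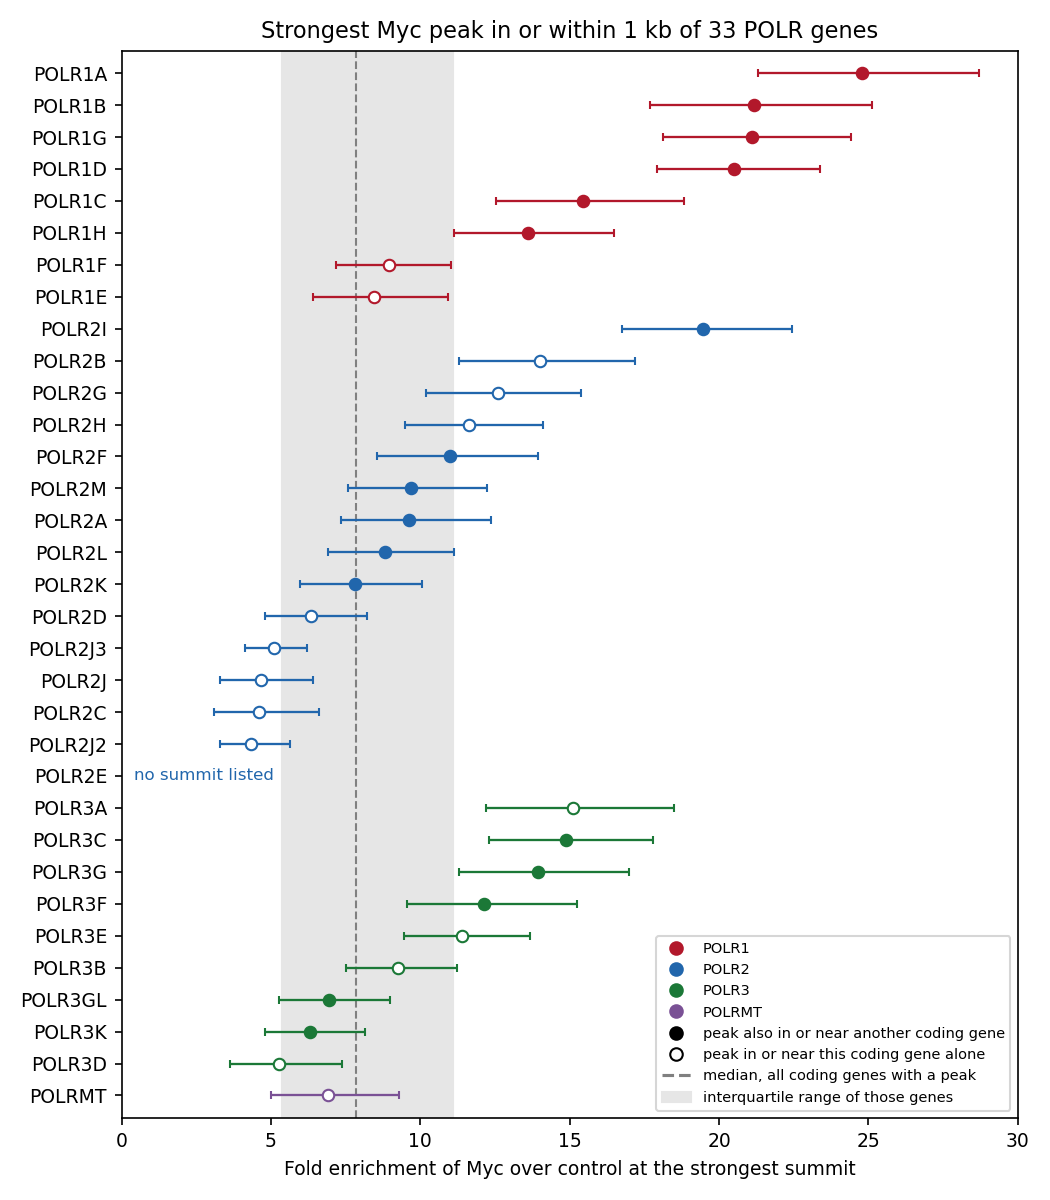
Fold enrichment of Myc over control (x axis) at the strongest summit in or within 1 kb of 33 POLR genes (y axis), with 95% intervals from the Poisson limits of the pileup. Filled points are peaks that also lie in or within 1 kb of another coding gene, and the dashed line and grey band give the median and the interquartile range of all protein-coding genes with a peak. The 6 POLR1 genes with filled points range from 13.6 to 24.8, and POLR2E has no summit listed.

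Promoter sequences of 25 of the 34 genes were in the RefSeq table used here (GRCh38.p14, 250 bases before to 50 after each listed start, strand of the gene, 5′ to 3′). The following 6 are shown because they hold the highest fold of the family (POLR1A), the CACGTG E-boxes of the family (POLR1G, POLR3A, POLR3C and POLR3E) or belong to the gene without a peak (POLR2E). Capitals mark CACGTG, or CACGCG and its reverse complement CGCGTG, a variant E-box.
POLR1A, chr2:86105837-86106136, minus strand: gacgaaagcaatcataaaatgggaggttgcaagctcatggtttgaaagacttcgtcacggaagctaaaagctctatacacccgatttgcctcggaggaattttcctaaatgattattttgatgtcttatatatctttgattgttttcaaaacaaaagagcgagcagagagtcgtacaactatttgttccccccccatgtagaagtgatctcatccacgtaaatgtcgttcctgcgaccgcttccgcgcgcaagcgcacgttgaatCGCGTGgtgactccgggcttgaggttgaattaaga
POLR1G, chr19:45406394-45406693, plus strand: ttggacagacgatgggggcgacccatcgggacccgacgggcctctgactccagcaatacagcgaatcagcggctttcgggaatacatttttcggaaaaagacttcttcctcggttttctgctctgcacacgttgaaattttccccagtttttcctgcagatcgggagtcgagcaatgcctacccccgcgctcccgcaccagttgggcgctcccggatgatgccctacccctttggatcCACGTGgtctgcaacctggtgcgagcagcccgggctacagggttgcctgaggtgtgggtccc
POLR3A, chr10:78029466-78029765, minus strand: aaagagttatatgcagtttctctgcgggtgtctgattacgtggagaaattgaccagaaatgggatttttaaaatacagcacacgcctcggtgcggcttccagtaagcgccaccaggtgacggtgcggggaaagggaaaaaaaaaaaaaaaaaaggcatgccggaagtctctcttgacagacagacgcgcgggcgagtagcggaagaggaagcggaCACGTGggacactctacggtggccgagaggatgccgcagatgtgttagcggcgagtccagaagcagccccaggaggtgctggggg
POLR3C, chr1:145823950-145824249, plus strand: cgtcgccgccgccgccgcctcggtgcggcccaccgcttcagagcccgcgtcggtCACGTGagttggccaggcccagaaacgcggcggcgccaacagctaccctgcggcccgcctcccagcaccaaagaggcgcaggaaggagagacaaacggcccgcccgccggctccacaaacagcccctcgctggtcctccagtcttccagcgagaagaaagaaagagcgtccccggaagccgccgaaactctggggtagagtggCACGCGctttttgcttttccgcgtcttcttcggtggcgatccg
POLR3E, chr16:22297159-22297458, plus strand: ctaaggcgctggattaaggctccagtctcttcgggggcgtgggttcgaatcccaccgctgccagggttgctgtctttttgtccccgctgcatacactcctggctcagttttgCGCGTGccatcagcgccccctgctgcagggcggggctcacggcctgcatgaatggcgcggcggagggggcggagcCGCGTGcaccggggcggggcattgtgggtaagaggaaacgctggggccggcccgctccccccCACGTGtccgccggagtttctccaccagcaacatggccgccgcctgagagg
POLR2E, chr19:1095326-1095625, minus strand: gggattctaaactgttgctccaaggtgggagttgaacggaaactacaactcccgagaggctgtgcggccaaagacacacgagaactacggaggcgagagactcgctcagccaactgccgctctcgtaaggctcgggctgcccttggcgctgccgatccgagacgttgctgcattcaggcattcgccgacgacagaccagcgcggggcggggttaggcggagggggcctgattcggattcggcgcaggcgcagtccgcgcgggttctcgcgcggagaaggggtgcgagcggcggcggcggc

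The E-box CACGTG was found in 4 of the 31 promoters listed for POLR genes (12.9%), against 8.34% of 22199 promoters of protein-coding genes. It was in 1 of 9 POLR1 promoters, 0 of 12 POLR2 promoters and 3 of 9 POLR3 promoters. The variant CACGCG, on either strand, was in 10 of 31 (32.3%), against 14.3% of all, and CATGCG with its reverse complement CGCATG in 7 of 31 (22.6%), against 7.92%. Of the CATGCG promoters, 5 belonged to POLR2 genes, 1 to a POLR3 gene and 1 to POLRMT. The motif CATGTG, searched on both strands, was in 1 of 31, against 8.93% of all promoters. The motif CACGAG, searched likewise, was in 4 of 31 (12.9%), against 7.37%. The POLR2E promoter holds 1 CACGAG and neither CACGTG nor CACGCG. A match describes the letters of a window and is not a measured site, and promoters of 1 gene can overlap. A CACGCG of POLR3C and the CATGCG of POLR2F lie in both promoters of their gene and count for each. Among promoters of coding genes with a summit within 1 kb of a start, CACGTG was in 9.51%, CACGCG in 17.3% and CATGCG in 9.53%.

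The position of the E-box relative to the summit differed between the genes shown. In the POLR3E promoter, CACGTG begins 1 base before the transcription start, and the summit lay 97 bp from it. In POLR3A the motif begins 35 bases before the start and the summit lay 250 bp away. In POLR1G it begins 12 bases before the start, with the summit 445 bp away, and in POLR3C 196 bases before the first listed start, with the summit 339 bp away. The CACGCG of POLR1A begins 15 bases after the start, 90 bp from the summit.

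Summits sat close to the starts of transcription. Among the 25 POLR genes with a listed start, 24 (96.0%) had a summit within 1 kb of one, against 60.1% of the 15843 protein-coding genes with a listed start. The strongest summit of the gene was within 1 kb of a start in 24 of 24 POLR genes with a peak, against 73.3% of 11299 coding genes. Distances of these 24 summits to the nearest start ranged from 455 bp upstream to 347 bp downstream. Of them, 15 were downstream and 14 of these within 250 bp, that is 58.3% of the 24, against 43.5% of the summits within 1 kb of a start over all coding genes. At some genes with more than 1 listed start, the direction depended on the start taken. At POLR1B, POLR1D, POLR2H and POLR3C the summit was downstream of the other listed start, and at POLR3B it was upstream of the other. Starts read from the opposite strand within 1 kb were listed for 12 of the 25 genes (48.0%), against 13.6% of all coding genes with a listed start.

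**Figure D2:**
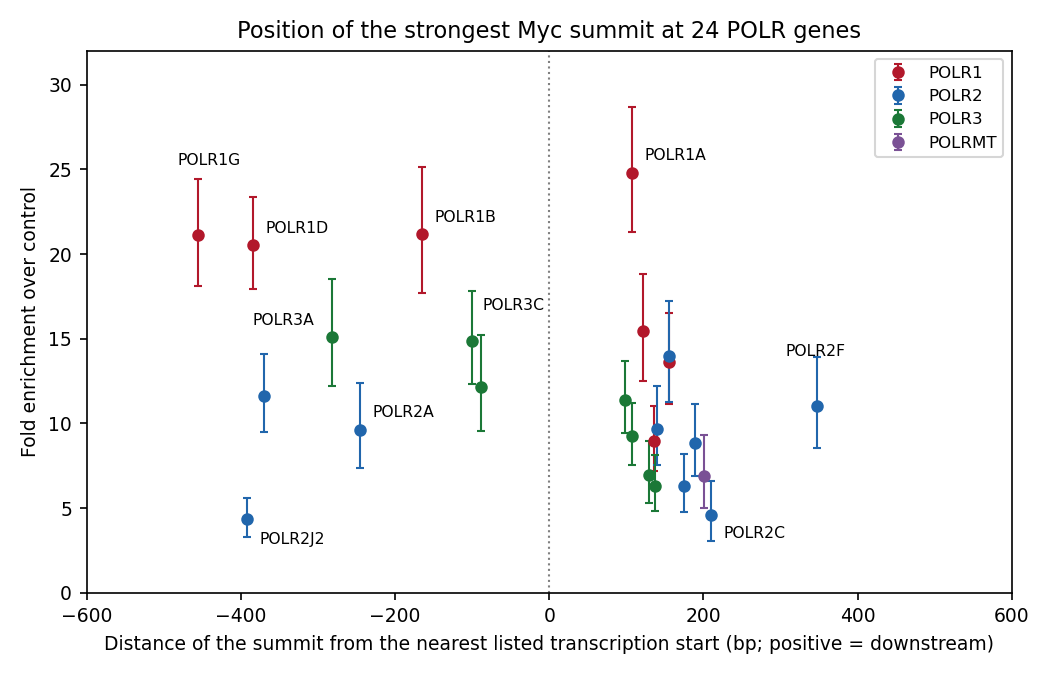
Distance of the strongest Myc summit from the nearest listed transcription start (x axis, bp, positive values downstream) and its fold enrichment (y axis, with exact Poisson 95% intervals) at the 24 POLR genes with a peak and a listed start. All lie between 455 bp upstream and 347 bp downstream. Of the 4 POLR1 genes with folds above 20, POLR1A has its summit 108 bp downstream and POLR1G, POLR1D and POLR1B have theirs upstream of the nearest start. At POLR1D and POLR1B the summit lies 765 and 264 bp downstream of the other listed start.

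The largest subunits, which form the active centre together, had peaks in all 3 enzymes. At POLR1A (chromosome 2, 86020216 to 86105886), the largest subunit of polymerase I, the summit at 86105778 had a fold of 24.8 (95% interval 21.3 to 28.7), with 178 fragments over a control level of 6.22 before 1 is added to each. This was the highest value of the family and lay above 99.0% of the coding genes with a peak. At POLR3A (chromosome 10, 77975149 to 78029515), its counterpart in polymerase III, the summit at 78029797 had 15.1 (12.2 to 18.5), from 91 over 5.09. At POLR2A (chromosome 17, 7484366 to 7514616), whose product carries the long tail that coordinates messenger RNA processing, the summit at 7484121 had 9.62 (7.36 to 12.4), from 59 over 5.24. The interval of POLR1A lay above both others.

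The genes of the second largest subunits followed another order. POLR1B (chromosome 2) had a fold of 21.2 (17.7 to 25.1), from 129 fragments over 5.14, POLR2B (chromosome 4) had 14.0 (11.3 to 17.2), from 89 over 5.43, and POLR3B (chromosome 12) had 9.24 (7.53 to 11.2), from 99 over 9.82. These 3 intervals did not overlap. The control level at POLR3B was higher than at 94.4% of all peaks, so its fold was below that of POLR2B at a higher pileup.

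Polymerases I and III share the pair of assembly subunits encoded by POLR1C and POLR1D, and POLR2C and POLR2J encode their counterparts in polymerase II. POLR1D (chromosome 13, 27620743 to 27667411) had a fold of 20.5 (17.9 to 23.4) from 221 fragments over 9.82, the highest pileup of the family, in a peak 4424 bp wide. The control level there was higher than at 94.3% of all peaks. POLR1C (chromosome 6, 43517089 to 43562407) had 15.4 (12.5 to 18.8). POLR2J, at 4.67 (3.31 to 6.41), and POLR2C, at 4.60 (3.08 to 6.61), stood low, and of the coding genes with a peak only 18.6% and 17.7% had lower folds. The intervals of POLR1C and POLR1D thus lay above those of POLR2C and POLR2J. The strongest peaks of POLR1C and POLR1D also lay in or within 1 kb of YIPF3 and LNX2. Those of POLR2C and POLR2J lay near no other coding gene, and the part of this in the difference was not tested.

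Small zinc-binding subunits that act in RNA cleavage or proofreading are encoded by POLR1H, POLR2I and POLR3K. POLR2I (chromosome 19, 36113709 to 36114875) had the highest fold of the POLR2 genes, 19.4 (16.7 to 22.5), from a pileup of 184 over 8.51. POLR1H had 13.6 (11.1 to 16.5) and POLR3K 6.31 (4.81 to 8.15), and the 3 intervals did not overlap. The POLR2I peak, with its summit at 36115080, was shared with TBCB, a tubulin folding factor gene.

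The stalk, the pair of subunits that reaches out from the core, showed wide differences within 1 enzyme. In polymerase II, POLR2G had 12.6 (10.2 to 15.4) and its partner POLR2D 6.32 (4.79 to 8.20). In polymerase III, the stalk gene CRCP, whose symbol does not start with POLR, had 24.6 (21.2 to 28.4). POLR1F, the stalk gene of polymerase I, had 8.94 (7.18 to 11.0).

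Subunits that resemble general initiation factors of polymerase II also differed among themselves. In polymerase I, POLR1G (chromosome 19, 45406644 to 45410737) had 21.1 (18.1 to 24.4), from 179 fragments over 7.53, and POLR1E, whose product pairs with that of POLR1G, had 8.43 (6.39 to 10.9). In polymerase III the pair POLR3E and POLR3D had 11.4 (9.44 to 13.7) and 5.25 (3.62 to 7.39). The trio of POLR3C, POLR3F and POLR3G, which acts when the enzyme starts transcription, had 14.9 (12.3 to 17.8), 12.1 (9.56 to 15.2) and 13.9 (11.3 to 17.0). POLR3G and POLR3GL encode alternative forms of 1 subunit, of which POLR3G is known from stem cells and tumours. POLR3G had a fold of 13.9 from a pileup of 95, and POLR3GL had 6.95 (5.28 to 8.99) from 56, and the intervals did not overlap. The strongest peaks of POLR3C, POLR3F, POLR3G and POLR3GL were shared with RNF115, DZANK1, MBLAC2 and ANKRD34A, in that order.

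Subunits used by all 3 enzymes are encoded by POLR2E, POLR2F, POLR2H, POLR2K and POLR2L. POLR2H had 11.6 (9.50 to 14.1), POLR2F 11.0 (8.54 to 13.9), POLR2L 8.83 (6.90 to 11.1) and POLR2K 7.82 (5.97 to 10.1), against a median of 7.83 over all coding genes with a peak. All 4 were below POLR1C and POLR1D, although the intervals of POLR2H and POLR2F overlapped that of POLR1C. POLR2E (chromosome 19, 1086574 to 1095375) had no summit in the gene or within 1 kb. Its nearest summits lay 3261 bp beyond the higher end, with a fold of 6.24 (4.44 to 8.53), and 4158 bp below the lower end, inside ARHGAP45, with 5.09 (3.49 to 7.19). Within 20 kb of POLR2E, 9 summits were listed, so peaks of this strength were called on both sides of the gene. Their control levels were 5.09 to 5.24, at or near the lowest level of the whole list, 5.09. Outside the nuclear enzymes, POLRMT had 6.89 (4.99 to 9.29) and POLR2M, which encodes an inhibitory partner of polymerase II, had 9.69 (7.57 to 12.2) in a peak that also lies in GCOM1.

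Folds were higher where the peak was shared with a neighbouring gene. The strongest peak also lay in or within 1 kb of another coding gene in 17 of 33 POLR genes (51.5%), against 27.7% of all coding genes with a peak. Among POLR1 genes the 6 with a shared peak had folds from 13.6 to 24.8, and the others, POLR1F and POLR1E, had 8.94 and 8.43. Medians were 20.8 for shared and 8.69 for unshared peaks of POLR1 genes, 9.66 and 5.71 for POLR2 genes, and 12.1 and 9.24 for POLR3 genes, against 9.32 over 3820 and 7.29 over 9973 coding genes. The partners were PTCD3 at POLR1A, TTL at POLR1B, YIPF3 at POLR1C, LNX2 at POLR1D, PPP1R13L at POLR1G and PPP1R11 at POLR1H. A shared peak cannot be given to either gene, and the part of this in the higher POLR1 values was not tested. With shared peaks left out, 3 POLR1 genes had a peak, with a median of 8.43, against 5.71 over 8 POLR2 genes and 7.25 over 6 POLR3 genes. The third of these POLR1 values is 2.47, from a weak peak inside POLR1D. The median over the 18 POLR genes was then 6.61, against 6.96 over 11113 coding genes, so that neither the share nor the median of the POLR genes lay above that of all coding genes.

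Further peaks were few and weak. Of the 42 peaks assigned to POLR genes, 9 were not the strongest of their gene, and their folds ranged from 2.47 to 5.08. Only 8 of 34 genes had 2 or more summits (34.4% of all protein-coding genes did). Summits were counted over the whole gene, and POLR genes were shorter, with a median length of 14381 bp against 24115 bp. The part of gene length in this count was not tested. Inside POLR1D a summit 17617 bp from the lower end had 2.47 (1.55 to 3.74), and inside POLR3B one 60828 bp from the lower end had 3.54 (2.28 to 5.28). POLR3GL had a pair of further summits beyond its higher end, at 420 bp (5.08, 3.67 to 6.87) and at 977 bp (4.02, 2.72 to 5.74). The farther of these lay just inside the 1 kb limit, and just outside it a summit 1018 bp below POLR2L had 11.3 (9.04 to 14.0) and lay in or near CD151, and one 1078 bp beyond POLR3C had 3.88 (2.60 to 5.58).

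**Figure D3:**
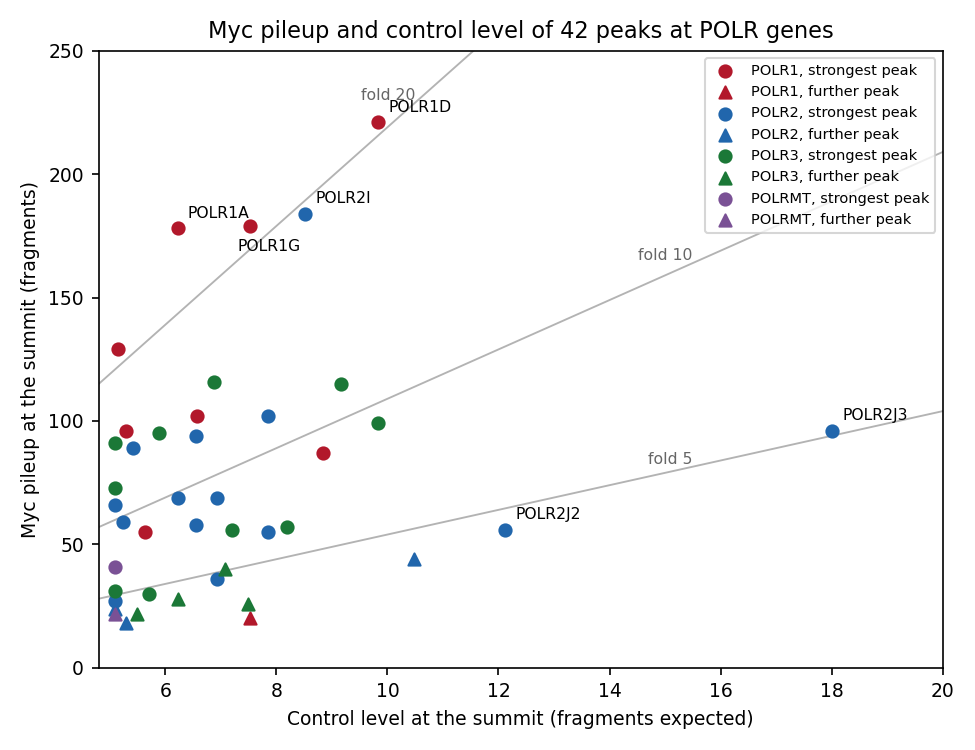
Myc pileup (y axis, fragments) against the control level (x axis, fragments expected) at the summits of 42 peaks at POLR genes, with lines of equal fold. Circles are the strongest peak of each gene and triangles the further peaks; POLR2J2 and POLR2J3 have the highest control levels, 12.1 and 18.0.

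Control levels were high at the near-identical copies of POLR2J and at a further summit of POLR2J itself. POLR2J2 (chromosome 7, 102666046 to 102671663) and POLR2J3 (102566966 to 102572583) are copies of POLR2J, each annotated over 5618 bp. Their pileups were 56 and 96 over control levels of 12.1 and 18.0, which are higher than at 98.5% and 99.6% of all peaks, and their folds were 4.35 (3.30 to 5.62) and 5.10 (4.14 to 6.22). The main POLR2J summit had 36 fragments over 6.93. How reads that match more than 1 copy were placed is not given in the sources used here, so the values of these copies are uncertain.

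RNA genes lay near some of the peaks. At POLR3E (chromosome 16, 22297409 to 22335096) the leucine tRNA gene TRL-AAG2-4 (22297140 to 22297221), a type of gene that polymerase III itself transcribes, ends 188 bp before the start, and the first 63 bases of the POLR3E sequence above belong to it. The strong POLR3E peak, from 22297269 to 22298703, began beyond the tRNA gene with its summit 286 bp from it, and a weaker peak with a fold of 3.18 (2.12 to 4.60) had its summit 456 bp on the other side. Neither peak interval covered the tRNA gene. At POLR3D the summit lay within 1 kb of the microRNA gene MIR320A.

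With shared peaks counted, genes that work with the polymerases carried peaks about as often as the subunit genes. Of 9 polymerase I factor genes, 8 had one, with a median fold of 13.9, led by NOLC1 (25.8), TCOF1 (19.2) and RRN3 (16.4). NOLC1 and TCOF1 encode nucleolar phosphoproteins and RRN3 the factor that brings polymerase I to its promoter. TTF1, the polymerase I terminator gene, had no summit within 1 kb (nearest at 4294 bp). Of 18 polymerase III genes, which include its initiation factors, 17 had a peak, with a median of 11.8. They were led by CRCP, by GTF3C2 (19.7), a subunit of TFIIIC, and by GTF3A (15.1), the 5S rRNA factor TFIIIA. BRF2, used at promoters of the U6 type, had none, with the nearest at 36985 bp.

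For polymerase II, 18 of 18 initiation genes had a peak, with a median of 8.04, led by GTF2H1 (23.0), a TFIIH subunit, GTF2A1 (12.5) and CCNH (11.5). Genes for its tail and for elongation had one in 23 of 23 cases, with a median of 9.77, led by the kinase gene CDK13 (18.0), CTDP1 (11.7) and CTR9 (11.5). Among genes for polymerase assembly, 13 of 14 had one, with a median of 11.4, led by RUVBL2 (20.1), GPN3 (18.1) and RUVBL1 (17.9). PIH1D1, a cochaperone gene, had none, with the nearest at 1523 bp. Among the leading genes of these lists, RRN3, GTF2H1, RUVBL2 and GPN3 shared their strongest peaks with PDXDC1, HPS5, GYS1 and FAM216A, in that order. Such peaks cannot be given to either gene. Against 68.8% and a median of 7.83 over all coding genes, each list lay higher in both. The margin in median was widest for the polymerase I factors, as for the POLR1 genes. In that small list, 6 of the 8 genes with a peak had folds above 7.83, and the lowest fold was 2.72. With −log10 q of at least 5, 7 of its 9 genes had a peak.

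**Figure D4:**
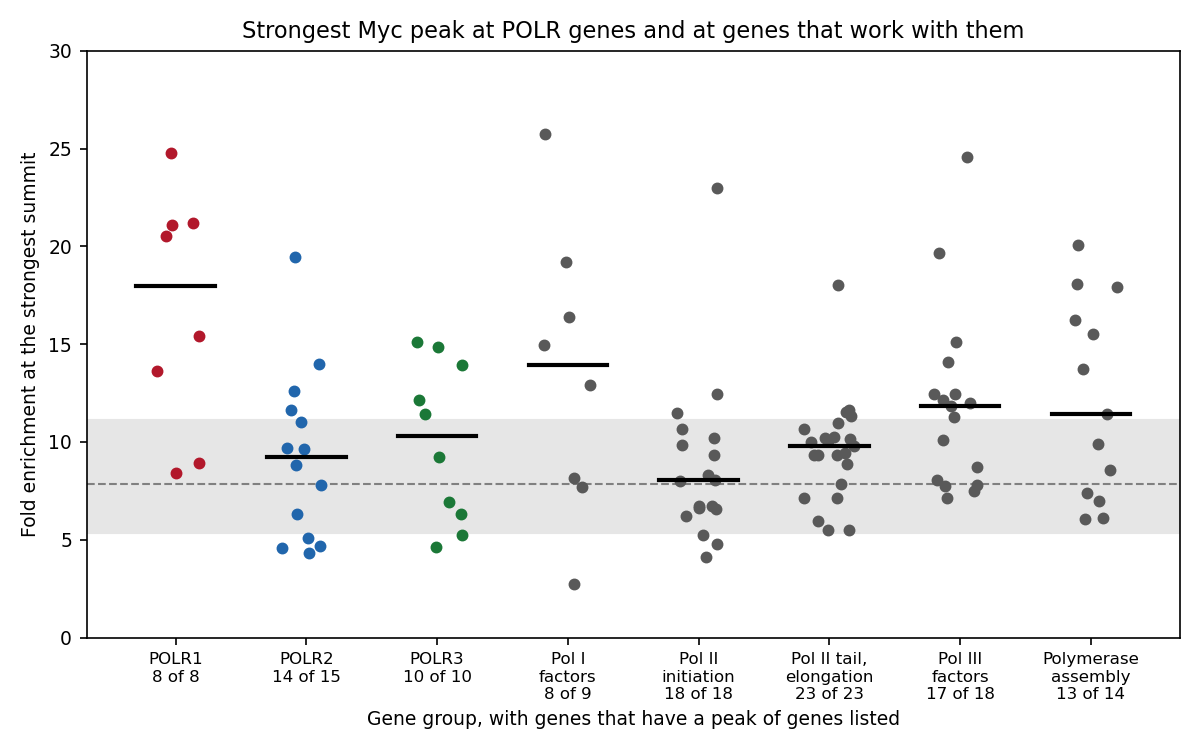
Fold enrichment at the strongest Myc summit (y axis) of each gene with a peak in the POLR groups and in 5 lists of genes that work with the polymerases (x axis). Black bars are medians, and the dashed line and grey band are the median and interquartile range of all coding genes with a peak; POLR1 has the highest median, 18.0, followed by the polymerase I factors with 13.9.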

How the data were processed

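The authors deposited 1 narrowPeak list of MACS2 for the series. Per the submitters' processing notes, the tools included BWA 0.7.15, Picard 2.19.0 and MACS2 2.1.2, with build hg38. The sources used here do not give the control libraries or how replicates were joined. Per the layout of the deposited list, each peak has a fold enrichment (a ratio of Myc over control), a −log10 p, a −log10 q and a score of 10 times the −log10 q. Reference positions, counted from 1, came from RefSeq tables of GRCh38.p14, which has the chromosome sequences of hg38.

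Pileups were solved from fold and −log10 p with scipy 1.17.1 (a whole number within 0.001 for 47016 of 47016 nuclear peaks), a procedure tested on simulated data. Control level means the expected fragments at the summit. The strongest peak is the one with the highest fold. Members and gene lists were chosen with earlier results of these data known. Every POLR gene is in the counts and medians, but 1 POLR3 gene is not reported by itself here. Each list's genes were named up to the 3 highest folds plus those without a peak. No test between genes was made, because genes are not replicates and the list has no value per library. Alternatives changed the window, the q threshold, the summit rule, the groups and the use of shared peaks.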

Additional observations from a re-analysis of the deposited data

How the results depend on the processing

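Counts and medians of the POLR genes were recomputed under windows of 500 bp, 2 kb and 5 kb, −log10 q of at least 5 and 10, 1 peak per interval, overlap of the whole peak by 1 bp, other groupings, listed starts alone, and without shared peaks. Of 146 recomputed values, 134 stayed within 1.5 times the count or within the counting interval of the median. POLR1 had the highest median of the 3 groups under each of these settings, and POLR3 stood above POLR2. Without POLR2J, POLR2J2, POLR2J3 and POLR2M, however, the POLR2 median was 10.3, equal to that of POLR3 after rounding. This setting kept 11 POLR2 genes, 10 of them with a peak, and left out POLR2J itself, whose fold was low (4.67). No interval was duplicated, so 1 peak per interval repeated the main setting. Under all windows, both q thresholds and overlap of the whole peak, the POLR1 median stayed at 18.0. These settings used the same POLR1 peaks again, so their agreement is not separate support for the order. Without shared peaks, genes with a peak fell to 18 of 34, 3 POLR1, 8 POLR2 and 6 POLR3 genes, and medians to 6.61 for all POLR genes, 8.43 for POLR1, 5.71 for POLR2 and 7.25 for POLR3; assembly genes with a peak fell to 8 of 14. All coding genes then stood at 55.5% with a median of 6.96, so the POLR genes, at 52.9%, were no longer above them in share or median. With summits near listed starts alone, where fewer genes have an entry, medians were 20.5 for POLR1 and 11.4 for POLR3, and 9 of 10 POLR2 genes had a peak. No paired analysis was possible because the list has no value per library. With a pileup of 27, as at POLR2C, counting error alone spans folds of 3.08 to 6.61.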
